A study of Mus musculus with 6 samples.

Results

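The genes described here are the ligands and receptors of the neurotrophin and glial cell line-derived neurotrophic factor (GDNF) pathways, 8 of the 25576 genes listed in bulk-seq of mouse spinal cord. They were chosen by gene symbol. The ligands were Bdnf, Ntf3 and Gdnf, and the receptors were Ntrk2, Ntrk3, Ngfr, Gfra1 and Ret. All 8 had a value above 0 in each of the 6 libraries. Levels are given as FPKM, a count of sequenced fragments divided by transcript length and by the size of the library. This scale is meant to make genes and libraries comparable, but total FPKM still ran from 346181 to 413653 between libraries.

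Bulk-seq covered whole spinal cord of FVB mice at postnatal day 4, with 3 SMA and 3 control libraries made from total RNA after removal of ribosomal RNA. SMA mice (mSmn-/-, hSMN22tg/0) lacked mouse Smn and carried the human SMN2 transgene, a model of severe type I disease known as Taiwanese mice. Control mice (mSmn+/-, hSMN22tg/0) were heterozygous for the Smn knockout and carried the same transgene, so neither group was wild type. The methods can be read as repeated libraries of a single sample per group, so p-values here measure only the spread between these libraries, which may be technical. The number of reads behind each library is unknown, but the smallest steps of low values gave relative depths between 0.993 and 1.16 of that of SMA replicate 1. In whole tissue, fewer cells of a type and less RNA per cell cannot be told apart.

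The level of Smn1 was 10.4, 8.64 and 11.9 FPKM in control replicates 1, 2 and 3 and 8.48, 9.30 and 11.1 FPKM in SMA replicates 1, 2 and 3. The groups overlapped, with a mean of 10.3 ± 1.65 FPKM in control and 9.62 ± 1.33 FPKM in SMA (SD, n = 3 each). The genotype labels therefore have no check in these values.

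Control replicate 2 stood apart from the other 5 libraries. The summed level of 18 hepatocyte markers was 32166 FPKM there and between 66.5 and 125 FPKM in the other libraries, and Alb, the gene for serum albumin, was the most abundant of them. These 18 genes made up 7.78% of all FPKM in control replicate 2 and 0.0342% or less elsewhere. The summed level of 7 erythroid markers, led by the hemoglobin gene Hbb-bs, was 18823 FPKM in control replicate 2 and between 1115 and 1861 FPKM elsewhere. In the same library, 7 of the 8 ligand and receptor genes had their lowest level, the exception being Gdnf. Of the 17088 genes tested, 7665 (44.9%) were lowest in control replicate 2. Ret was at 0.557 of the mean of control replicates 1 and 3, Bdnf at 0.597, Ntrk2 at 0.626, Ntrk3 at 0.633 and Gfra1 at 0.735. The neuron markers were lowest there in 8 of 8 cases, at a median ratio of 0.553, and the astrocyte markers in 5 of 6, at a median ratio of 0.769. The part of the liver and blood transcripts in these lower levels was not tested. Where a log2 fold change is given for a gene below, it is given with and without this library, unless the gene was not tested without it.

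**Figure D1:**
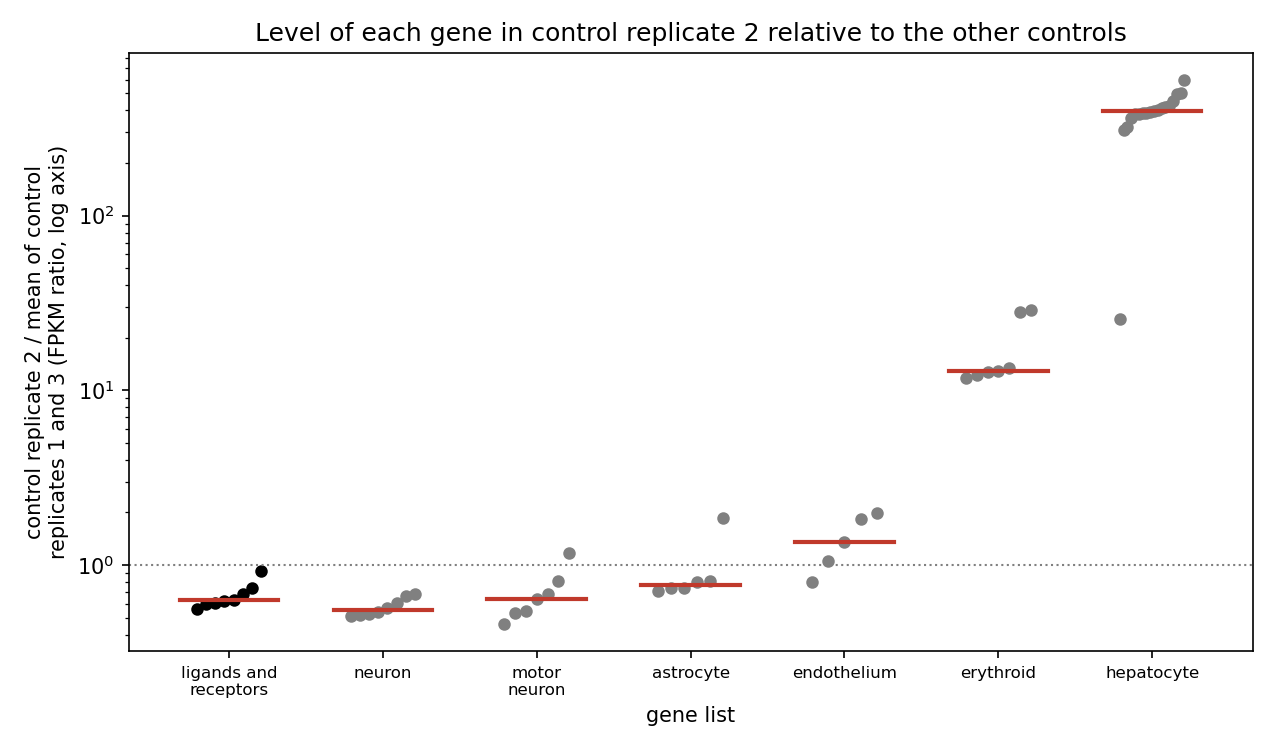
Each point is a gene, and the vertical log axis gives its FPKM in control replicate 2 divided by its mean FPKM in control replicates 1 and 3, with a red bar at the median of each list. All 8 ligand and receptor genes (black) lie below 1 with a median of 0.629, beside 0.890 for all tested genes, 0.553 for neuron markers and 0.636 for motor neuron markers, while the hepatocyte markers have a median of 395.

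Neurotrophins are secreted proteins that keep neurons alive during development and shape their axons and synapses. BDNF, the product of Bdnf, signals through the receptor tyrosine kinase TrkB (Ntrk2), and neurotrophin-3, the product of Ntf3, through TrkC (Ntrk3), while p75NTR (Ngfr) binds all neurotrophins and their uncleaved precursors. GDNF binds GFRα1 (Gfra1), a receptor held to the membrane by a lipid anchor, and the pair activates the kinase Ret. In the spinal cord both systems are known as trophic supplies of motor neurons: muscle and glia provide GDNF and BDNF, and neurotrophin-3 from muscle spindles maintains proprioceptive sensory neurons.

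RefSeq promoter windows (GRCm38.p6, 250 bases before to 50 after an RNA start) were at hand for 6 of the 8 genes, with 14 windows in all, 7 of them for Bdnf, whose many first exons each have a start of their own. Sequences are shown for Bdnf, whose promoters are known to respond to neuronal activity and to Npas4, a gene described further on, and for Gdnf, where the groups did not overlap. Both show the 100 bases before an RNA start, read on the plus strand. Capitals mark TCACGTCA, a form of the cyclic AMP response element, in Bdnf and, in Gdnf, the letters of a TATA box (TATAAA).
Bdnf, chr2:109692336-109692435: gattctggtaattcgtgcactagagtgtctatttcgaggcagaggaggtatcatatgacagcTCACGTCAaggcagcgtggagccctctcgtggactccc
Gdnf, chr15:7809948-7810047: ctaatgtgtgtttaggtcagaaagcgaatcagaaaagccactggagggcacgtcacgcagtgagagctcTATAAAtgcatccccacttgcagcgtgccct
The Bdnf element began 38 bases before the start, and TCACGTCA was found on either strand in 1 of the 14 windows and in 0.441% of all 32851 windows. The palindromic form TGACGTCA, which cannot match at the same bases, was in 0 of the 14 windows and in 1.79% of all. The Gdnf TATA box began 31 bases before the start, and TATAAA was in 1 of the 14 windows and in 13.6% of all, again on either strand. This Gdnf start, at base 7810048, lies before the first base that the deposited table gives for the gene, 7811011. Gene-level FPKM adds all transcripts of a gene, so no start site was measured on its own.

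The levels of the 8 genes spread over more than 2 orders of magnitude, and the receptors lay above the ligands. Ntrk3 had the highest mean, 88.1 FPKM over the 6 libraries, followed by Ntrk2 (64.7 FPKM), Gfra1 (41.5 FPKM), Ret (36.3 FPKM) and Ngfr (6.06 FPKM). The ligands followed with Bdnf at 2.64 FPKM, Ntf3 at 0.705 FPKM and Gdnf at 0.408 FPKM. This order held in 6 of 6 libraries. Across libraries the ranges of neighbouring genes overlapped from Ntrk3 down to Ret, and again between Ntf3 and Gdnf, whereas those of Ret and Ngfr, Ngfr and Bdnf, and Bdnf and Ntf3 did not. Ntrk3 was above 98.1% of all listed genes by mean level and Ret above 92.7%, while Bdnf was above 51.0% and Gdnf above 31.4%.

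**Figure D2:**
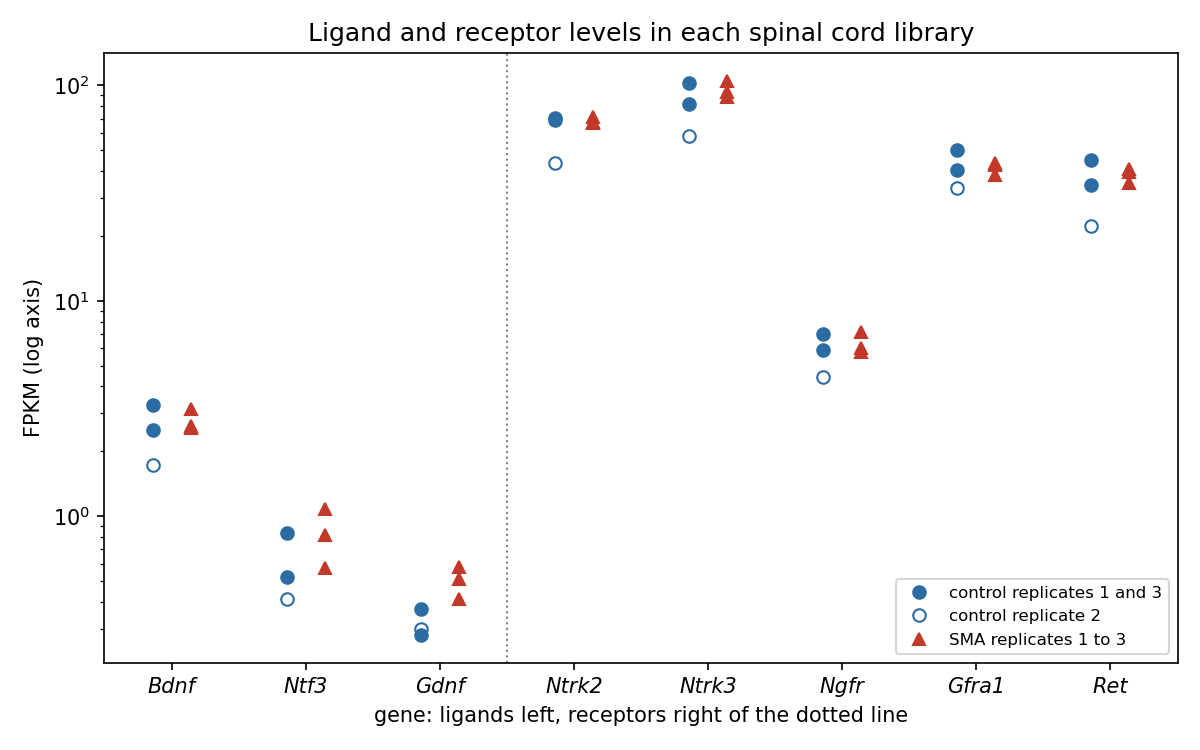
Each point is the FPKM of a gene in a library, on a log axis, with control libraries as blue circles (replicate 2 open) and SMA libraries as red triangles. The receptors Ntrk2, Ntrk3, Gfra1 and Ret lie between 22.2 and 105 FPKM, the ligands between 0.280 and 3.29 FPKM, and the groups overlap for each gene except Gdnf.

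The question of the comparison was whether transcripts of these trophic pathways differ in the spinal cord of SMA mice. None of the 7 ligand and receptor genes that were tested passed an adjusted p under 0.05, and none passed an unadjusted p under 0.05, with or without control replicate 2. Gdnf was below the minimum mean of 0.5 FPKM and is treated apart. Over all 17088 genes tested by limma on log2(FPKM + 1), 581 (3.4%) were higher and 409 (2.39%) lower in SMA at an unadjusted p under 0.05, and 0 (0%) passed an adjusted p under 0.05. At a fold over 2 as well, 12 genes were higher and 17 lower, against 16 higher and 7 lower without control replicate 2, and 64 and 125 with a pseudocount of 0.1 over all libraries. Higher genes made up 58.7% of those at an unadjusted p under 0.05, 65.5% after quantile normalization and 64.2% with no filter, but 46.7% after scaling to the same total FPKM, 48.3% after median ratio scaling and 50.2% after scaling by neural marker genes. Without control replicate 2, 874 of 16574 genes (5.27%) were higher and 862 (5.2%) lower at an unadjusted p under 0.05. There, 2 genes (0.0121%) passed an adjusted p under 0.05, the small RNA genes Snora74a and Rpph1, named here after their values were seen, and 0 passed when the filter on low FPKM was dropped as well.

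Ntrk2 (ENSMUSG00000055254, chr13:58806596-59133970 on the plus strand) encodes TrkB. Its level was 68.7, 43.6 and 70.5 FPKM in control replicates 1, 2 and 3 and 67.5, 71.3 and 66.9 FPKM in SMA replicates 1, 2 and 3. The 3 SMA libraries and control replicates 1 and 3 lay close together, and control replicate 2 was the low value. SMA differed from control by a log2 fold change of 0.20 with a 95% confidence interval from -0.26 to 0.66 (limma, unadjusted p = 0.335, adjusted p = 0.699). It came to -0.022 (from -0.15 to 0.11, limma, unadjusted p = 0.707, adjusted p = 0.918) with control replicate 2 left out, a narrow interval around 0. The annotation holds 7 coding transcripts of Ntrk2, from 466 to 821 codons, and Trk receptors are known in forms with and without the kinase domain. Gene-level FPKM does not tell these forms apart.

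Ntrk3 (ENSMUSG00000059146, chr7:78175959-78738012 on the minus strand), the gene for TrkC, measured 81.7, 58.2 and 102 FPKM in control replicates 1, 2 and 3 and 92.9, 105 and 88.5 FPKM in SMA replicates 1, 2 and 3. SMA replicate 2 was the highest library, but control replicate 3 was above SMA replicates 1 and 3, so the groups overlapped. The comparison gave a log2 fold change of 0.27 with a 95% confidence interval from -0.22 to 0.77 (limma, unadjusted p = 0.230, adjusted p = 0.683), and 0.060 (from -0.19 to 0.31, limma, unadjusted p = 0.598, adjusted p = 0.880) with control replicate 2 left out. Leaving out control replicate 3, the high control, raised it to 0.46 (limma, unadjusted p = 0.0448). In that fit 1040 of 17131 genes were higher at an unadjusted p under 0.05, and 0 genes passed an adjusted p under 0.05. The size of this difference changed with the control libraries used. Ntrk3 to Ntrk2, as a ratio of FPKM within a library, ranged from 1.19 in control replicate 1 to 1.48 in SMA replicate 2, and the groups overlapped.

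Ngfr (ENSMUSG00000000120, chr11:95568818-95587735 on the minus strand) encodes p75NTR, a receptor of the tumor necrosis factor receptor family. In control the level was 5.93, 4.40 and 7.02 FPKM in replicates 1, 2 and 3, and in SMA it was 7.19, 6.04 and 5.77 FPKM. The values interleaved, with the highest in SMA replicate 1 and the next in control replicate 3. The test gave a log2 fold change of 0.13 with a 95% confidence interval from -0.28 to 0.53 (limma, unadjusted p = 0.480, adjusted p = 0.771), and -0.028 (from -0.32 to 0.27, limma, unadjusted p = 0.833, adjusted p = 0.956) without control replicate 2.

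Bdnf (ENSMUSG00000048482, chr2:109674700-109727007 on the plus strand), the ligand of TrkB, had 3.29, 1.73 and 2.51 FPKM in control replicates 1, 2 and 3 and 2.56, 2.61 and 3.14 FPKM in SMA replicates 1, 2 and 3. Control replicates held both the highest and the lowest value. SMA against control came to a log2 fold change of 0.12 with a 95% confidence interval from -0.33 to 0.58 (limma, unadjusted p = 0.539, adjusted p = 0.800). Without control replicate 2 the sign turned, to -0.046 (from -0.39 to 0.30, limma, unadjusted p = 0.767, adjusted p = 0.939). The mean was 2.51 ± 0.778 FPKM in control and 2.77 ± 0.326 FPKM in SMA (SD, n = 3 each), so the SD within control exceeded the difference of the means.

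Ntf3 (ENSMUSG00000049107, chr6:126101412-126166910 on the minus strand), which encodes neurotrophin-3, measured 0.832, 0.411 and 0.519 FPKM in control replicates 1, 2 and 3 and 0.571, 1.08 and 0.819 FPKM in SMA replicates 1, 2 and 3. SMA replicates 2 and 3 were above or near the highest control, and SMA replicate 1 was between control replicates 3 and 1. The fit gave a log2 fold change of 0.20 with a 95% confidence interval from -0.27 to 0.67 (limma, unadjusted p = 0.345, adjusted p = 0.703) over the 6 libraries. The estimate was 0.12 (from -0.30 to 0.54, limma, unadjusted p = 0.533, adjusted p = 0.857) without control replicate 2. Near a level of 1 FPKM, log2(FPKM + 1) understates a fold difference, and with a pseudocount of 0.1 the estimate was 0.43.

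Gdnf (ENSMUSG00000022144, chr15:7811011-7837575 on the plus strand) was the lowest of the 8 genes. Its level was 0.369, 0.298 and 0.280 FPKM in control replicates 1, 2 and 3 and 0.508, 0.413 and 0.577 FPKM in SMA replicates 1, 2 and 3. Each SMA library was above each control library, the closest being SMA replicate 2 and control replicate 1. Gdnf was the only member of the 8 with such a separation, and among all 25576 listed genes 8.82% had every SMA library above every control. Of the 17088 tested genes, 17% had groups that did not overlap in either direction, against 0 of the 7 tested members. The mean was 0.316 ± 0.0468 FPKM in control and 0.499 ± 0.0824 FPKM in SMA (SD, n = 3 each). The exact two-sided permutation test gave p = 0.1, the smallest that 3 libraries against 3 allow, and p = 0.2 without control replicate 2, the smallest for 3 against 2.

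With no filter on low FPKM, Gdnf entered the fit at a log2 fold change of 0.19 with a 95% confidence interval from 0.0038 to 0.37 (limma, unadjusted p = 0.0467, adjusted p = 0.737). In that fit, 3.45% of all genes were higher at an unadjusted p under 0.05. Leaving out control replicate 2, an alternative chosen after the values were seen, gave 0.18 (limma, unadjusted p = 0.0952, adjusted p = 0.641). The difference therefore did not pass an adjusted p under 0.05 in either set of libraries, and with the number of reads unknown the counting error of values under 1 FPKM could not be given. As for Ntf3, log2(FPKM + 1) understates a fold difference at such levels. With a pseudocount of 0.1, added after its values were seen, the log2 difference of Gdnf was 0.52 over all libraries.

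Gfra1 (ENSMUSG00000025089, chr19:58204139-58455909 on the minus strand), the binding receptor for GDNF, had 40.5, 33.4 and 50.3 FPKM in control replicates 1, 2 and 3 and 38.4, 43.6 and 42.7 FPKM in SMA replicates 1, 2 and 3. The SMA libraries all lay inside the range of the controls. Group means were 41.4 ± 8.49 FPKM in control and 41.6 ± 2.78 FPKM in SMA (SD, n = 3 each), with a log2 fold change of 0.023 with a 95% confidence interval from -0.35 to 0.40 (limma, unadjusted p = 0.887, adjusted p = 0.959). Without control replicate 2 the sign turned, to -0.12 (from -0.35 to 0.12, limma, unadjusted p = 0.277, adjusted p = 0.714). The sign also turned after quantile normalization, median ratio scaling and scaling by neural marker genes.

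Ret (ENSMUSG00000030110, chr6:118151745-118197718 on the minus strand) encodes the kinase that GDNF and GFRα1 activate. The level was 34.5, 22.2 and 45.2 FPKM in control replicates 1, 2 and 3 and 35.3, 39.5 and 40.8 FPKM in SMA replicates 1, 2 and 3. Control values were spread more widely than SMA values, with SDs of 11.5 and 2.87 FPKM, and the controls enclosed the SMA libraries. This gave a log2 fold change of 0.23 with a 95% confidence interval from -0.35 to 0.81 (limma, unadjusted p = 0.379, adjusted p = 0.718) with all libraries and -0.039 (from -0.31 to 0.23, limma, unadjusted p = 0.746, adjusted p = 0.931) without control replicate 2. Exact two-sided permutation tests of the 7 tested genes gave p-values between 0.3 (Ntf3) and 1 (Gfra1), and between 0.6 and 1 without control replicate 2.

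**Figure D3:**
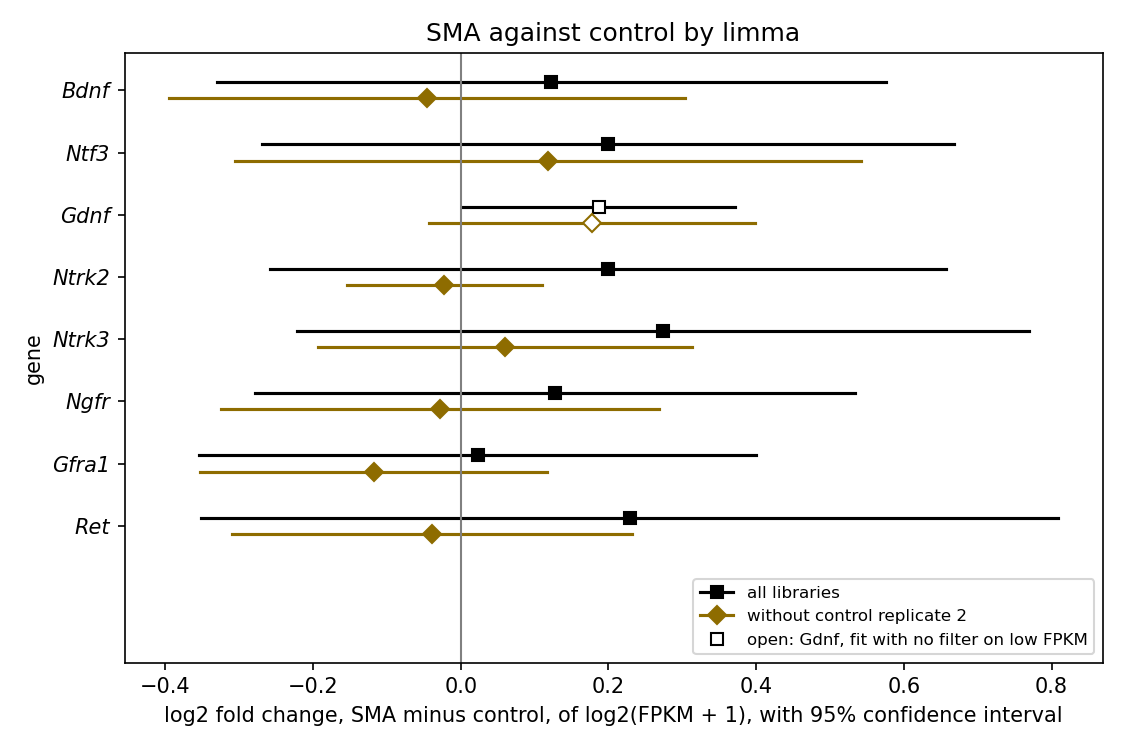
Points are log2 fold changes of log2(FPKM + 1), SMA minus control, and lines their 95% confidence intervals from limma, in black for all 6 libraries and in brown without control replicate 2. Gdnf (open points) comes from fits with no filter on low FPKM. Apart from Gdnf with all libraries (0.0038 to 0.37), each interval spans 0, and without control replicate 2 the estimates for Bdnf, Ntrk2, Ngfr, Gfra1 and Ret lie below 0.

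Ratios within a library are not changed by scaling between libraries. They were chosen after the values were seen and are given with no test. Bdnf to Ntrk2 ranged from 3.57% to 4.78% and Ntf3 to Ntrk3 from 0.508% to 1.03% over the 6 libraries, with overlap between the groups in both. Gdnf to Gfra1 was 0.912%, 0.894% and 0.557% in control replicates 1, 2 and 3 and 1.32%, 0.946% and 1.35% in the SMA libraries. Ret to Gfra1 was 85.3%, 66.6% and 89.9% in control and 91.9%, 90.6% and 95.5% in SMA. In both GDNF receptor ratios the SMA libraries lay above the controls, by a narrow gap between SMA replicate 2 and the highest control. Groups did not overlap in these 2 of the 5 ratios, beside 17% of all tested genes taken singly, and the share among pairs of genes was not computed.

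**Figure D4:**
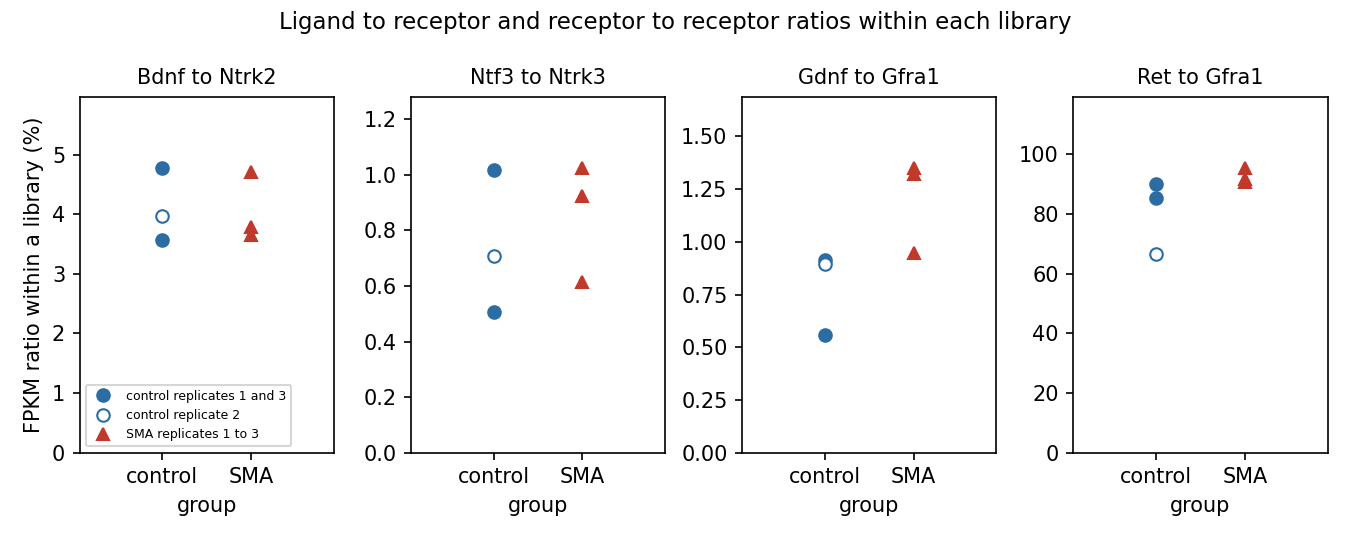
Each panel gives an FPKM ratio within a library as a percentage, on an axis from 0, for control (blue circles, replicate 2 open) and SMA (red triangles). The groups overlap for Bdnf to Ntrk2 and Ntf3 to Ntrk3, and do not overlap for Gdnf to Gfra1 and Ret to Gfra1, where the lowest SMA ratios are 0.946% and 90.6%.

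The genes most like each tested member over the 6 libraries were found by the root mean square difference of log2(FPKM + 1), each gene centred on its own mean. For Ntrk2 these were Arhgap44 (0.0176) and Clasp2 (0.0221), and for Ntrk3 Ralgds (0.0305) and Zfp560 (0.0339). Ret was followed most closely by Fam189a1 (0.0372) and Nefm (0.0424), the latter a neurofilament gene in the list of neuron markers. The closest genes were Gm26782 (0.0236) and Gm38344 (0.0272) for Gfra1, Gm9899 (0.0356) and Ptgis (0.0420) for Ngfr, Ccdc32 (0.0346) and 2210013O21Rik (0.0359) for Bdnf and Atp5g3 (0.0282) and 1700049G17Rik (0.0315) for Ntf3. The median difference over all tested genes lay between 0.217 (Gfra1) and 0.310 (Ret).

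The 8 genes and others of their pathways formed 11 lists with 107 genes, of which 103 had values and 93 were tested, the 7 tested ligand and receptor genes among them. At an unadjusted p under 0.05, 1 was higher and 2 were lower, and without control replicate 2, 2 of 91 were higher and 4 lower. None passed an adjusted p under 0.05, the smallest being 0.683 and, without control replicate 2, 0.300. The share at an unadjusted p under 0.05 was 3.23% and 6.59% in these fits, beside 5.79% and 10.5% of all tested genes. By direction, 3.4% and 5.27% of all tested genes were higher, and 2.39% and 5.2% were lower.

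**Figure D5:**
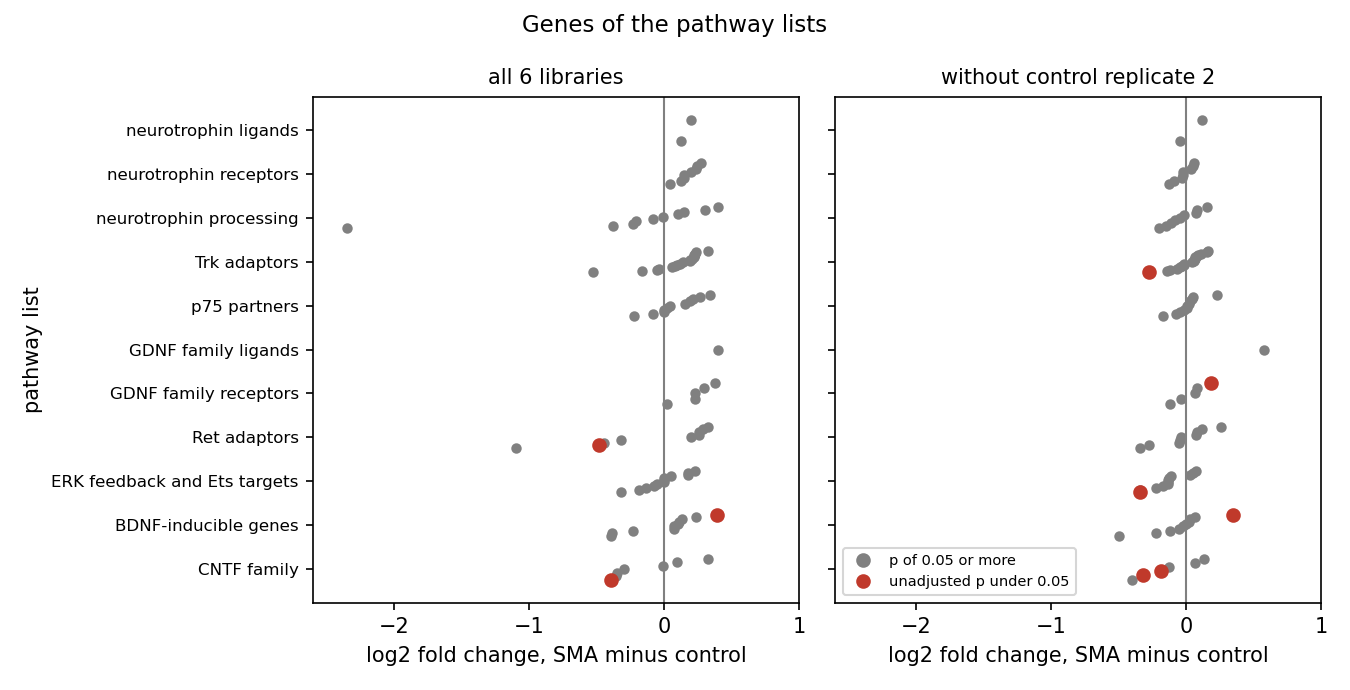
Each point is a tested gene of a pathway list, placed by its log2 fold change, SMA minus control, with all 6 libraries on the left and without control replicate 2 on the right, and red points have an unadjusted p under 0.05. There are 3 red points on the left and 6 on the right. The gene far to the left, in neurotrophin processing, is Plg at -2.35, a plasma protein gene made in liver that reached 170.1 FPKM in control replicate 2 and was not tested without that library.

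Among neurotrophin ligands, 0 of 2 tested genes passed, which are Bdnf and Ntf3 described above. Their median log2 fold change was 0.16, and 0.036 without control replicate 2, beside 0.044 and 0.0016 for all tested genes. Among neurotrophin receptors, with Ntrk2, Ntrk3 and Ngfr among them, 0 of 8 passed, with a median of 0.17, and of -0.022 without control replicate 2. Sort1, which encodes sortilin, the partner of p75NTR in binding neurotrophin precursors, had a mean of 28.5 FPKM and a log2 fold change of 0.047 (limma, unadjusted p = 0.778, adjusted p = 0.916). The sign turned without control replicate 2, to -0.12 (limma, unadjusted p = 0.119, adjusted p = 0.580).

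Neurotrophin processing covers the proteases that cleave the precursors, and 0 of its 10 tested genes passed, with a median log2 fold change of -0.044, and of -0.044 over 9 genes without control replicate 2. Cpe, a sorting receptor for the BDNF precursor, had means of 300.2 FPKM in control and 386 FPKM in SMA, at a log2 fold change of 0.40 (limma, unadjusted p = 0.117, adjusted p = 0.683) and of 0.16 (limma, unadjusted p = 0.0756, adjusted p = 0.522) without control replicate 2. The prohormone convertase gene Pcsk2 stood at 0.30 (limma, unadjusted p = 0.186, adjusted p = 0.683), and at 0.075 (limma, unadjusted p = 0.439, adjusted p = 0.812) without control replicate 2. Trk adaptors, which link the receptors to Ras and other pathways, had 0 of 18 genes past the threshold with all libraries, at a median of 0.17. Without control replicate 2 the median was 0.052 and the adaptor gene Crkl was lower, at -0.27 (limma, unadjusted p = 0.0340, adjusted p = 0.443), but with all libraries it was at -0.16 (limma, unadjusted p = 0.287, adjusted p = 0.683). For p75 partners, 0 of 11 genes passed in either fit, with medians of 0.042 and 0.0082. That list includes Maged1 (208 FPKM) and Ngfrap1 (36.5 FPKM, means over the 6 libraries), which encode a p75NTR adaptor and a protein that binds the p75NTR death domain.

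GDNF family ligands were low throughout, and Nrtn, the gene for neurturin, was the only gene tested of 4 with values. Nrtn had 0.641, 1.07 and 0.261 FPKM in control replicates 1, 2 and 3 and 0.934, 0.592 and 2.21 FPKM in SMA replicates 1, 2 and 3, at a log2 fold change of 0.40 (limma, unadjusted p = 0.250, adjusted p = 0.683), and of 0.58 (limma, unadjusted p = 0.0902, adjusted p = 0.546) without control replicate 2. Artn, the gene for artemin, had a mean of 0.322 FPKM. In GDNF family receptors, with Gfra1 and Ret among them, 0 of 5 tested genes passed with all libraries, at a median of 0.23, and 1 was higher without control replicate 2, at a median of 0.070. This was Ncam1, the neural cell adhesion molecule and an alternative GDNF receptor, with 209, 135 and 196 FPKM in control replicates 1, 2 and 3 and 231, 229 and 231 FPKM in SMA replicates 1, 2 and 3. All SMA libraries were above all controls, and the log2 fold change was 0.38 (limma, unadjusted p = 0.0769, adjusted p = 0.683), and 0.18 (limma, unadjusted p = 0.0133, adjusted p = 0.366) without control replicate 2. Of the other GDNF family co-receptors, Gfra2 had a mean of 13.3 FPKM and Gfra4 of 14.4 FPKM.

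Of 9 Ret adaptors 1 was lower with all libraries, at a list median of 0.20, and 0 passed without control replicate 2, where the median turned to -0.034. The lower gene was Dok1, a docking protein gene, at -0.48 (limma, unadjusted p = 0.0499, adjusted p = 0.683), and without control replicate 2 it was at -0.34 (limma, unadjusted p = 0.0863, adjusted p = 0.544). ERK feedback and Ets targets are genes that receptor tyrosine kinases such as Ret and the Trks are known to induce. Of these 0 of 12 passed with all libraries, at a median of 0.00090, and 1 was lower without control replicate 2, at a median of -0.14. That gene was Dusp6, a phosphatase that turns off ERK, with 14.9, 13.7 and 13.9 FPKM in control replicates 1, 2 and 3 and 13.4, 9.46 and 10.9 FPKM in SMA replicates 1, 2 and 3. Every SMA library was below every control, with a log2 fold change of -0.32 (limma, unadjusted p = 0.0517, adjusted p = 0.683) and, without control replicate 2, of -0.34 (limma, unadjusted p = 0.0354, adjusted p = 0.443). Etv4 and Etv5, transcription factor genes induced by GDNF in motor neurons or kidney, were at 0.0017 (limma, unadjusted p = 0.990, adjusted p = 0.996) and 0.18 (limma, unadjusted p = 0.169, adjusted p = 0.683). Without control replicate 2 they were at -0.11 (limma, unadjusted p = 0.279, adjusted p = 0.714) and 0.074 (limma, unadjusted p = 0.328, adjusted p = 0.748), so the sign of Etv4 turned.

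Among BDNF-inducible genes 1 of 10 tested was higher in either fit, with list medians of 0.092 and -0.010. Npas4, a transcription factor gene switched on by neuronal activity, had 0.833, 0.723 and 0.915 FPKM in control replicates 1, 2 and 3 and 1.34, 1.24 and 1.60 FPKM in SMA replicates 1, 2 and 3. All 3 SMA libraries were above the controls, at a log2 fold change of 0.39 (limma, unadjusted p = 0.0362, adjusted p = 0.683), and of 0.35 (limma, unadjusted p = 0.0462, adjusted p = 0.466) without control replicate 2. Bdnf, a known target of Npas4 and the gene whose promoter is printed above, did not pass. Vgf, the most abundant gene of the list at 41.4 FPKM, was at 0.23 (limma, unadjusted p = 0.316, adjusted p = 0.691) and, without control replicate 2, at 0.023 (limma, unadjusted p = 0.870, adjusted p = 0.967). The immediate early gene Fos was at 0.11 (limma, unadjusted p = 0.532, adjusted p = 0.797), and its sign turned without control replicate 2, to -0.022 (limma, unadjusted p = 0.878, adjusted p = 0.967).

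The CNTF family, a further trophic system of motor neurons that signals through the shared receptor gp130, had 1 of 7 tested genes lower, and 2 of 6 without control replicate 2. Of all tested genes, 2.39% were lower with all libraries and 5.2% without control replicate 2. Il6st, which encodes gp130, had 23.5, 27.6 and 23.4 FPKM in control replicates 1, 2 and 3 and 19.2, 19.4 and 17.3 FPKM in SMA replicates 1, 2 and 3. Each SMA library was below each control, with a log2 fold change of -0.39 (limma, unadjusted p = 0.00806, adjusted p = 0.683) and, without control replicate 2, of -0.32 (limma, unadjusted p = 0.00322, adjusted p = 0.300). Lifr, the partner of gp130 in the receptor, had 22.9, 32.7 and 22.2 FPKM in control replicates 1, 2 and 3 and 20.3, 19.5 and 19.3 FPKM in SMA replicates 1, 2 and 3, at -0.36 (limma, unadjusted p = 0.0577, adjusted p = 0.683) and, without control replicate 2, -0.19 (limma, unadjusted p = 0.0230, adjusted p = 0.421). The list median was -0.30 with all libraries and -0.16 without control replicate 2.

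Markers gave the setting of cell types for these values. Neuron markers summed to 1485, 853 and 1480.0 FPKM in control replicates 1, 2 and 3 and to 1441, 1554 and 1560.3 FPKM in SMA, with Map2 and Tubb3 the most abundant. Motor neuron markers, 7 of 7 with values, summed to 59.5, 40.8 and 89.6 FPKM in control and 59.2, 67.1 and 62.1 FPKM in SMA. Their most abundant gene was Prph, at a log2 fold change of -0.071 (limma, unadjusted p = 0.803, adjusted p = 0.927) and, without control replicate 2, of -0.35 (limma, unadjusted p = 0.0578, adjusted p = 0.493). It was followed by Slc18a3, the vesicular acetylcholine transporter, at 0.45 (limma, unadjusted p = 0.131, adjusted p = 0.683) and, without control replicate 2, 0.20 (limma, unadjusted p = 0.297, adjusted p = 0.728). This sum was lowest in control replicate 2 and highest in control replicate 3, as were Ret, Gfra1 and the sum of sensory ganglion markers below. Of all tested genes, 44.9% were lowest in control replicate 2. Sensory ganglion markers were low, led by Calca with a mean of 11.7 FPKM and P2rx3 with 0.681 FPKM. The 7 markers summed to 14.6, 7.65 and 22.0 FPKM in control and 11.1, 14.3 and 12.1 FPKM in SMA. Calca made up most of each of these sums. Its mean was lower in SMA than in control, and the means of the other 6 were higher.

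Astrocyte markers, led by Gfap and Slc1a2, summed to between 469.8 and 589 FPKM. Ngfr is also known from Schwann cells, and the part of Schwann cell RNA in its level was not tested. Meningeal fibroblast markers, led by Col1a2 and Col3a1, summed to 166, 174 and 150.4 FPKM in control and 181, 78.5 and 38.0 FPKM in SMA. At an unadjusted p under 0.05 with all libraries, 1 of 6 tested meningeal fibroblast markers was lower (0 without control replicate 2), and 0 neuron, motor neuron, sensory ganglion, astrocyte, oligodendrocyte lineage or erythroid markers passed. Without control replicate 2, 2 of 8 neuron markers were higher. Lower there were 1 of 6 tested motor neuron markers, 1 of 2 for sensory ganglion (Calca) and 1 of 6 for astrocytes. For the oligodendrocyte lineage 2 of 6 were lower, and for erythroid cells 1 of 7. In that fit 5.27% of all tested genes were higher and 5.2% lower.

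Endothelial markers were lower in SMA at an unadjusted p under 0.05 in 2 of 5 cases in either fit, beside 2.39% of all tested genes with all libraries and 5.2% without control replicate 2. Cldn5, a tight junction gene, was at a log2 fold change of -0.58 (limma, unadjusted p = 0.00220, adjusted p = 0.683) and, without control replicate 2, of -0.68 (limma, unadjusted p = 0.0000339, adjusted p = 0.108). Egfl7 was at -0.39 (limma, unadjusted p = 0.306, adjusted p = 0.689) and, without control replicate 2, -0.053 (limma, unadjusted p = 0.834, adjusted p = 0.957), and passed in neither. The other gene that passed was Pecam1, an endothelial adhesion gene, at -0.54 (limma, unadjusted p = 0.0182, adjusted p = 0.683) and, without control replicate 2, -0.42 (limma, unadjusted p = 0.0323, adjusted p = 0.443). The sum was 48.8, 64.0 and 55.1 FPKM in control and 42.5, 34.4 and 36.6 FPKM in SMA. Il6st, and Lifr without control replicate 2, were also lower, and both are expressed by endothelium as well, and the part of the endothelial difference in theirs was not tested. Skeletal muscle markers, led by Acta1 and Ckm, were low, with sums of 3.05, 4.08 and 0.923 FPKM in control and 4.59, 7.08 and 2.48 FPKM in SMA. Their median log2 fold change was 0.40 over 3 tested genes, and 0.65 over 2 without control replicate 2. SMA replicate 2 had both the highest sum and the highest Ntf3, while Gdnf was highest in SMA replicate 3. At the low end, control replicate 3 had both the lowest sum and the lowest Gdnf, while Ntf3 was lowest in control replicate 2. Gdnf and Ntf3 are both known from muscle, and the part of muscle RNA in their levels was not tested. Of the marker genes, Mrgprd, Fxyd3, Pmp2, Mylpf, Apoc3 and Tat were at 0 in at least 1 library.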

How the data were processed

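Total RNA of mouse spinal cord was depleted of ribosomal RNA and made into strand-specific libraries. Per library, the authors aligned reads with HISAT2 and deposited FPKM from Cufflinks, on mm10 (GRCm38). Versions, the annotation release and the strand setting are not given in the sources used here. An antisense gene overlaps exons of Bdnf (Gm45346) and of Gfra1 (Gm16277), and reads could be shared. The FPKM files list only genes above 0, and absent genes were set to 0. Depth in reads is unknown, so counting error could not be given.

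Groups were compared on log2(FPKM + 1) with limma 3.58.1 (R 4.3.3; lmFit, then eBayes with a variance trend, two-sided), for genes whose mean FPKM reached 0.5, and adjusted p is Benjamini-Hochberg across every gene in the fit. The procedure was tested on simulated data. Exact permutation tests used scipy 1.17.1. Members and gene lists were chosen with earlier results of these data known. Gene loci follow the deposited tables with starts counted from 1, and 25408 of 25576 genes (99.3%) were found in GENCODE M21.

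Named were the 8 members, Smn1, pathway genes at an unadjusted p under 0.05 in either fit, otherwise the 3 most abundant genes at most per pathway list, the 2 most abundant at most per marker list, and the 2 genes most like each tested member. Others were named after their values were seen, and some genes of these lists are not reported here. Alternatives were a pseudocount of 0.1, no filter or a minimum mean of 1 FPKM, same total FPKM, quantile, median ratio and neural marker scaling, the replicate number as a block, robust eBayes, leaving out each library, and control replicate 2 left out together with another choice.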

Additional observations from a re-analysis of the deposited data

How the results depend on the processing

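Across 18 alternatives the smallest adjusted p of any of the 8 genes (limma) lay between 0.447 and 0.907, and 0 genes of the 8 were lower at an unadjusted p under 0.05. Higher at that threshold was 1 gene of the 8 with no filter (Gdnf), beside 3.45% of all genes in that fit. Between 0 and 1 were higher when a library was left out, the 1 being Ntrk3 without control replicate 3. In that fit 1040 of 17131 genes were higher. Ntf3, Ntrk3 and Gdnf kept their sign wherever they had a value: at a minimum mean of 1 FPKM Ntf3 had none, and Gdnf was fitted only with no filter. Gdnf was at 0.52 with a pseudocount of 0.1, added after its values were seen. The cause of changes with a library or a scaling was not tested.

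With control replicate 2 left out and median ratio scaling, log2 fold changes reversed to -0.048 for Bdnf, -0.025 for Ntrk2, -0.031 for Ngfr, -0.12 for Gfra1 and -0.042 for Ret. The same library left out and no filter, chosen after seeing the data, gave -0.046, -0.022, -0.028, -0.12 and -0.039 in that order. With neural marker scaling in its place, also chosen then, Bdnf was at -0.030, Ngfr at -0.0067, Gfra1 at -0.095 and Ret at -0.016. With all libraries, Gfra1 reversed to -0.017 (quantile), -0.034 (median ratio) and -0.11 (neural markers), the last of which moved the median of all genes by -0.12. Leaving out each library gave 0.10 to 0.31 for Ntf3 and 0.060 to 0.46 for Ntrk3, and ranges of -0.046 to 0.28 for Bdnf, -0.022 to 0.32 for Ntrk2, -0.028 to 0.26 for Ngfr, -0.12 to 0.17 for Gfra1 and -0.039 to 0.46 for Ret, these last 5 negative without control replicate 2, and for Gfra1 also without SMA replicate 2.

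Of all genes, 581 were higher at an unadjusted p under 0.05, and 882 with no filter, 338 at the same total FPKM, 315 with neural marker scaling, 1161 without control replicate 2 and with no filter, and 214 to 1040 when a library was left out. Lower were 409, and 897 without control replicate 2 and with median ratio scaling, 1061 without it and with no filter, and 125 to 862 when a library was left out. At a fold over 2 as well, 17 genes were lower, and 125 with a pseudocount of 0.1, 11 with neural marker scaling, and, without control replicate 2, 7 with median ratio scaling, 6 with no filter and 8 with neural marker scaling, and 4 to 131 when a library was left out. Higher at that fold were 12, and 64 with a pseudocount of 0.1, 19 without control replicate 2 and with neural marker scaling, and 12 to 28 when a library was left out. At an adjusted p under 0.05, without control replicate 2, 1 gene was higher with median ratio scaling and 1 with neural marker scaling, Snora74a in both, and 0 with no filter, and leaving out each library gave 0 to 2.

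Replicate numbers did not pair the libraries: deviations from the group means correlated at -0.0370, 0.0161 and 0.0766 for numbers 1, 2 and 3, and SMA replicate 1 correlated best with control replicate 2 (0.0434). With the replicate number as a block, 356 genes were higher at an unadjusted p under 0.05, and 35 were lower at a fold over 2 as well, and none of the 7 tested ligand and receptor genes passed, as with no block.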
